A study of Mus musculus with 12 samples.

Results

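The genotype comparison described here was made among mice fed PLX3397, an inhibitor of the receptor tyrosine kinase Csf1r on which microglia depend for survival. It used 6 of the 12 striatal RNA-seq libraries of the study. R6/2 mice given PLX3397 (libraries 1 to 3) were set against wild-type mice given PLX3397 (libraries 1 to 3). There was 1 mouse per library and 3 per group, and the groups were taken from the sample titles. All 15397 genes of the table were compared. Every mouse was on the C57BL/6 background and ate its assigned chow from 7 to 11 weeks of age. In the PLX3397 groups this chow held 275 ppm of the drug, so the drug was shared by both sides of this comparison. Genotype was the only labelled difference. The libraries also differed in RNA of neighbouring regions and in a trend with transcript GC, both given below. The other 6 mice, 3 wild-type and 3 R6/2, ate vehicle chow, and their genotype difference is set beside the one under PLX3397 where it is printed. The study asked about striatal volume and the extracellular matrix, including perineuronal nets, in this mouse model.

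R6/2 mice carry a transgene with the first exon of the human huntingtin gene and an expanded CAG repeat, under the human huntingtin promoter, in addition to their intact mouse Htt gene. It is a fragment model of Huntington's disease with a fast course, and the fragment is made in many cell types, not in a single one. The striatum is built mostly of medium spiny projection neurons. Those of the indirect pathway carry the dopamine receptor Drd2, the adenosine receptor Adora2a and the opioid precursor Penk, and those of the direct pathway carry Drd1, Tac1 and Pdyn. Loss of their identity transcripts is the best known transcriptional feature of Huntington's disease models. Microglia, the resident macrophages of the brain, die when Csf1r is blocked for long enough.

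The 6 libraries held 20724479 to 23229507 reads recovered from the table. Replicates correlated across genes at r = 0.938 to 0.969 in the wild-type group and 0.962 to 0.972 in the R6/2 group. Csf1r stood at 1.52, 1.65 and -1.04 log2 CPM (log2 of counts scaled to equal library size) in wild-type libraries 1 to 3 and at -0.79, -0.24 and 1.39 in R6/2 libraries 1 to 3 under PLX3397, so the groups overlapped. The level of a list of homeostatic microglia genes (log2 of their mean CPM) was 2.49 to 2.81 in the wild-type and 2.72 to 3.69 in the R6/2 libraries under PLX3397, below the 4.55 to 5.07 of all 6 vehicle libraries. R6/2 libraries 1 and 2 stood apart in cortical excitatory neuron genes, at 4.71 and 5.31, while R6/2 library 3 read 6.85 and wild-type libraries 1 to 3 read 6.71, 6.95 and 7.49. Wild-type library 1 was high in choroid plexus genes, at 7.41, against 4.99 to 5.47 in the other 5. Medium spiny neuron genes, the defining markers of the dissected tissue, were present in every library, at 6.77 to 10.08.

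Under PLX3397, RNA was lower in R6/2 striatum for the medium spiny neuron program, the neuronal activity genes, cholesterol synthesis and ependymal cells, and higher for interferon-stimulated genes and several oligodendrocyte precursor genes, than in wild-type mice. At an adjusted p under 0.05 in limma, 2637 genes (17.1% of 15397) were higher in R6/2 and 2752 (17.9%) were lower, 5389 in all, of which 2304 differed at least 2-fold. In 7208 genes (46.8%) the 3 R6/2 values and the 3 wild-type values did not overlap. On vehicle chow the same test called 95 genes higher (0.617%) and 230 lower (1.49%), counts that ranged from 1 to 179 and from 0 to 382 when 1 library was left out. In bulk tissue, fewer cells of a type and less RNA per cell cannot be told apart, which holds for every group of genes below.

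A difference of composition along the transcripts ran through the comparison. The genotype difference under PLX3397 fell with the GC content of a gene's transcript (Spearman's rho -0.46 across 14305 genes, which are not independent replicates) and rose with transcript length (rho 0.44). In the tenth of genes with the lowest GC (31.0 to 41.5%) the median difference was 0.65 log2, with 527 genes higher and 37 lower. In the tenth with the highest GC (58.1 to 72.8%) it was -0.44, with 32 higher and 551 lower. On vehicle chow the trend had the other sign (rho 0.29). After a smooth trend in GC and length was removed from each library, 1747 genes were higher and 1687 lower, and 2264 of the 5389 kept their direction and their call. Its part in the result was not tested. With the cortical level as a covariate 4065 of the 5389 kept direction and call, and in each of the 12 fits that left out 1 library 2838 did. Without R6/2 libraries 1 and 2, which leaves 1 R6/2 library under PLX3397 whose spread is assumed to equal that of the other groups, 61 genes were higher and 176 lower, and 28 of the 40 gene lists had no called gene (17 of 36 interferon-stimulated genes and 17 of 40 ribosomal protein genes, for example, then had an unadjusted p under 0.05 in limma). Without R6/2 library 1 the counts were 1720 and 1663, and without R6/2 library 2 they were 1689 and 1772.

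**Figure D1:**
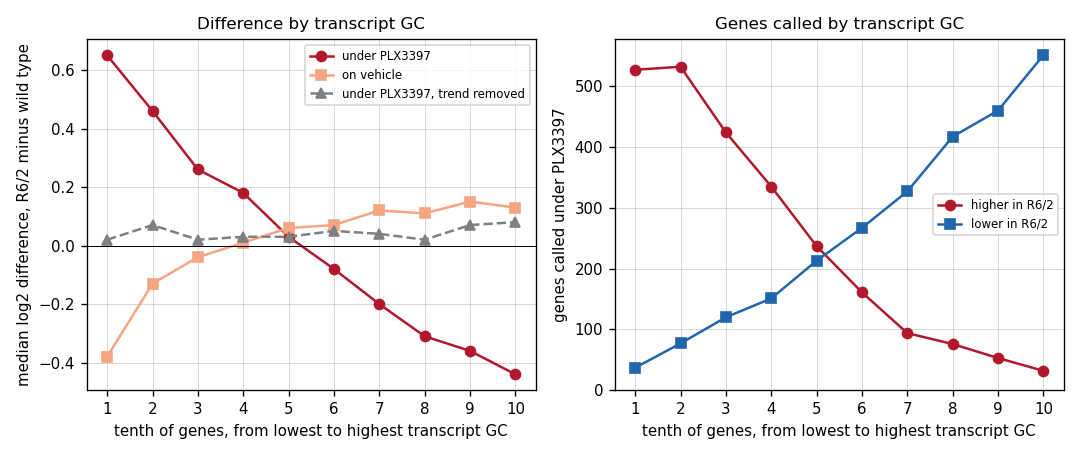
Genotype difference by transcript GC. The left panel plots the median log2 difference, R6/2 minus wild type, in 10 equal bins of genes ordered by transcript GC under PLX3397, on vehicle and under PLX3397 after removal of the GC and length trend, and the right panel plots the number of genes called higher or lower under PLX3397. The PLX3397 line falls from 0.65 to -0.44, and the line after removal stays between 0.02 and 0.08.

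**Figure D2:**
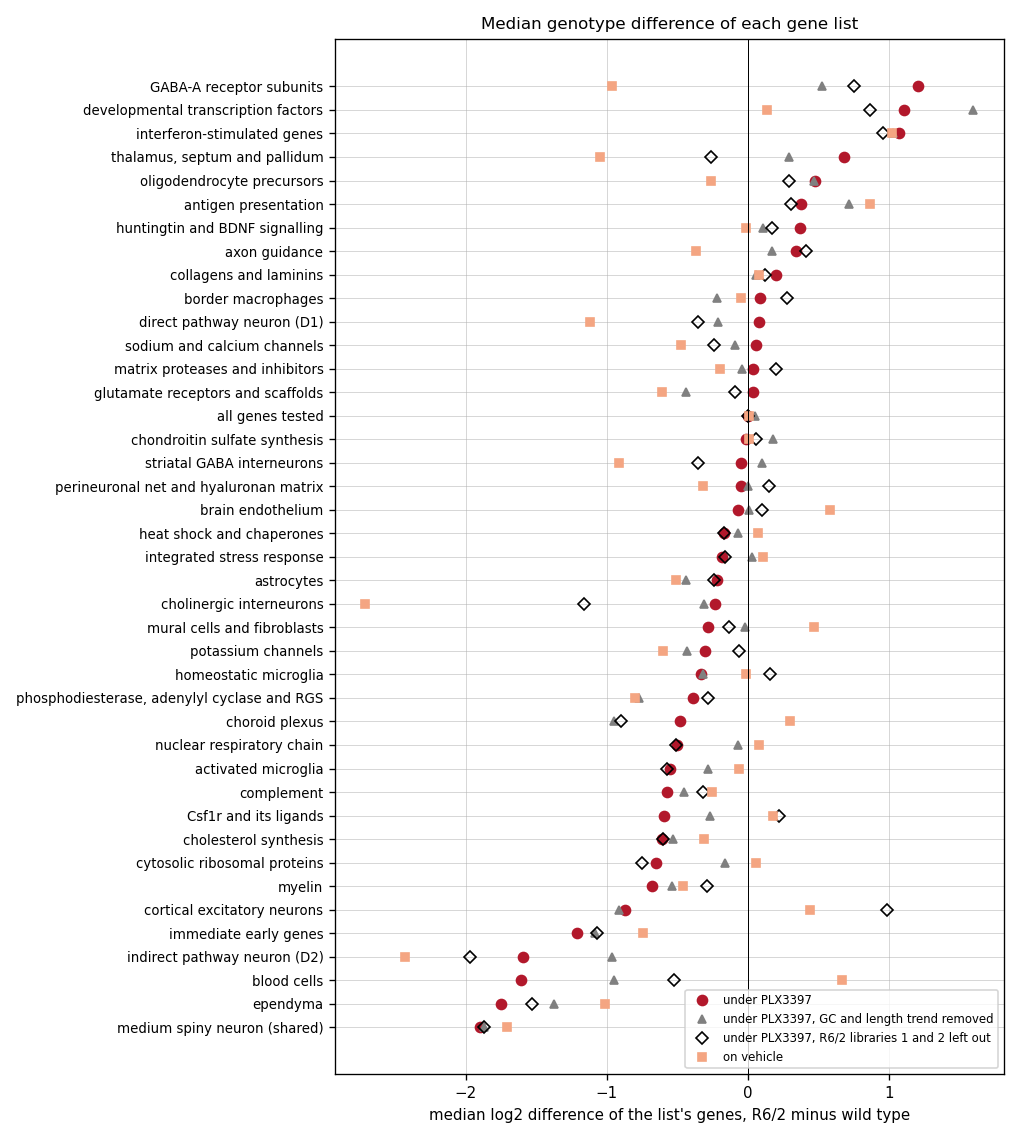
Median genotype difference of each gene list, as the log2 difference R6/2 minus wild type. Circles give the comparison under PLX3397, triangles the same after removal of the GC and length trend, open diamonds the same without R6/2 libraries 1 and 2, and squares the comparison on vehicle. The 36 shared medium spiny neuron genes sit near -1.90 under PLX3397 and the 36 interferon-stimulated genes near 1.07, while the median of all genes lies at about 0.

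The projection neuron program was the group with the lowest median. All 36 genes of the shared medium spiny neuron list had negative differences, with a median of -1.90 against about 0 over all genes, and 25 of 36 were called lower and 0 higher, against 17.9% lower over all genes. After removal of the GC and length trend 30 were lower, and without R6/2 libraries 1 and 2 the median was -1.87 with 7 called. The level of the list (log2 of its mean CPM) was 10.08, 8.93 and 9.55 in wild-type libraries 1 to 3 and 6.77, 8.03 and 7.74 in R6/2 libraries 1 to 3. On vehicle chow 12 of the 36 were lower and 0 higher, with a median of -1.71. At an unadjusted p under 0.05 in limma, 33 were lower on vehicle and 27 under PLX3397. The adjusted p also depends on how many genes pass in the whole comparison.

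Among the indirect pathway genes, Penk, the precursor of the enkephalins, stood at 11.03, 10.53 and 10.99 log2 CPM in wild-type libraries 1 to 3 and at 6.90, 8.12 and 7.44 in R6/2 libraries 1 to 3. All 3 R6/2 values lay more than 2 log2 units below the lowest wild-type value. Penk fell by 3.36 ± 0.38 log2 units (± SE here and below, n = 3 and 3, adjusted p = 0.00045), about 10.2-fold, and kept this call in all 25 alternative fits. Gpr6, a constitutively active receptor of indirect pathway neurons, stood at 6.91, 6.05 and 6.39 and 1.79, 3.93 and 2.79 in the same order, again with no overlap. It fell by 3.62 ± 0.50 (adjusted p = 0.000884). Adora2a, an adenosine receptor, read 9.44, 8.26 and 8.91 in wild type and 3.76, 6.14 and 5.90 in R6/2, with library 1 the lowest of the R6/2 group and the highest of the wild-type group. Its fall was 3.60 ± 0.61 (adjusted p = 0.00216), and that of Drd2, the D2 dopamine receptor, was 2.96 ± 0.57 (adjusted p = 0.00379). In all, 8 of the 12 indirect pathway genes were lower and 0 higher, with a median of -1.59 that was -0.96 in the 11 of them with a GC value once the trend was removed. The transcription factor Sp9, required for these neurons during development, was among the 8 at -1.04 ± 0.28, a call that ended without R6/2 library 1 (adjusted p = 0.0672). Ptprm, Cartpt, Grik3 and Necab1 did not pass the test, with overlapping groups in each.

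Of the 12 direct pathway genes, 5 were lower and 1 was higher, and the median was 0.08, or -0.21 after removal of the GC and length trend. Drd1, the D1 dopamine receptor, read 8.80, 7.41 and 8.01 log2 CPM in wild-type and 4.41, 6.30 and 5.65 in R6/2 libraries 1 to 3. The groups did not overlap, and Drd1 fell by 2.62 ± 0.60 (adjusted p = 0.00809). Tac1, the precursor of substance P, fell by 1.71 ± 0.39 (adjusted p = 0.00834), Pdyn, the precursor of the dynorphins, by 1.65 ± 0.40 (adjusted p = 0.0111), and Chrm4, the M4 muscarinic receptor that brakes direct pathway neurons, by 2.67 ± 0.40 (adjusted p = 0.00125). The transcription factors of the list, which are expressed in direct pathway neurons from development on, did not follow. Isl1 read 4.38, 4.17 and 4.10 in wild type and 4.36, 4.81 and 3.88 in R6/2, a difference of 0.14 ± 0.24 (adjusted p = 0.678) with overlapping groups, and Ebf1, Zfp521 and Tshz1 also missed the threshold. Isl1 is also a member of the cholinergic interneuron list below, so its level does not stand for direct pathway neurons alone. The D1 and D2 lists were not tested against each other.

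The shared list holds the signalling machinery of these neurons. Ppp1r1b, which encodes DARPP-32, the phosphatase inhibitor that relays dopamine signals, read 11.41, 10.68 and 10.95 log2 CPM in wild-type and 6.14, 8.42 and 7.63 in R6/2 libraries 1 to 3. It fell by 3.62 ± 0.54 (adjusted p = 0.00122), with every R6/2 value below every wild-type value. Rasgrp2, a calcium-responsive activator of Rap, fell by 3.06 ± 0.36 (adjusted p = 0.000562), and Ryr1, a calcium release channel, by 3.29 ± 0.51 (adjusted p = 0.00136), both in all 25 alternative fits. Scn4b, an auxiliary subunit of sodium channels, read 11.63, 9.73 and 10.70 and 4.88, 6.90 and 6.53 and showed the largest fall of the list after Lrrc10b, 4.59 ± 0.70 (adjusted p = 0.00134). Pde10a, the phosphodiesterase enriched in these neurons, fell by 2.45 ± 0.69 (adjusted p = 0.0196), a call lost without wild-type library 1 (adjusted p = 0.0579) or R6/2 library 1 (0.0764). Members without a call included Bcl11b (-1.15 ± 0.47), Foxp1 (-1.02 ± 0.53) and Gnal (-0.65 ± 0.38), transcription factors of these neurons and their olfactory-type G protein, in which the groups overlapped. Among regulators of cyclic nucleotides and G proteins, 9 of 25 were lower and 2 higher. Rgs14, a regulator of G protein signalling, read 6.77, 6.48 and 6.60 in wild type against 3.16, 4.27 and 4.18 in R6/2 and fell by 2.74 ± 0.25 (adjusted p = 0.000165), while the cAMP phosphodiesterase Pde4d rose by 1.02 ± 0.15 (adjusted p = 0.00127).

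**Figure D3:**
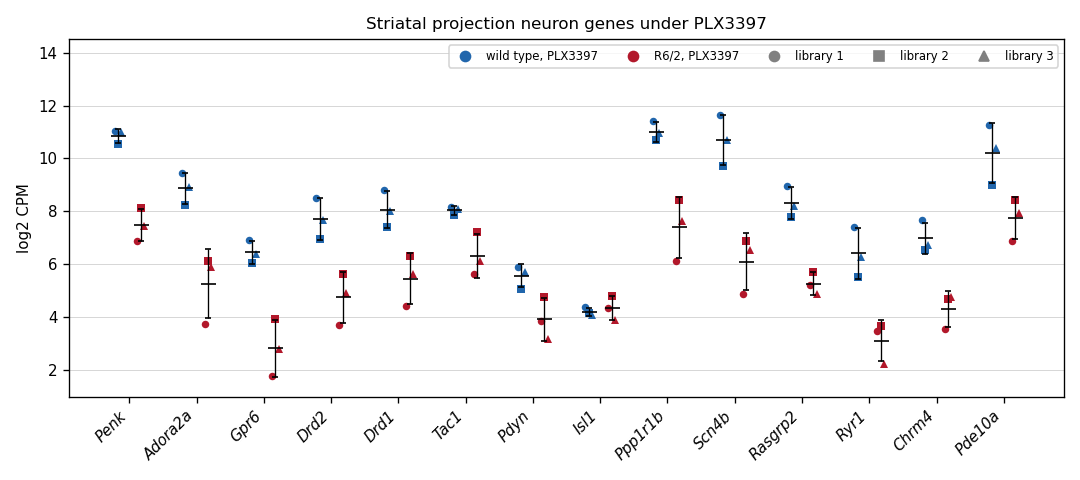
Levels of 14 striatal projection neuron genes in the 6 libraries under PLX3397, in log2 CPM. Each symbol is 1 library, and bars show the group mean and SD. R6/2 and wild-type values do not overlap in the genes shown except Isl1, whose groups cover the same range.

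Genes that neurons switch on within minutes of activity were lower as a group. Of 22 immediate early genes, 16 were lower and 0 higher, with a median of -1.21, and the level of the list was 6.10, 6.02 and 5.73 in wild-type libraries 1 to 3 against 3.56, 4.36 and 4.68 in R6/2 libraries 1 to 3. Cortical excitatory neuron genes followed the same order within the R6/2 group (4.71, 5.31 and 6.85). Their part in the result was not tested. Without R6/2 libraries 1 and 2 the median was -1.07 with 1 gene called, with the cortical covariate 14 were lower, and after removal of the GC and length trend 13 were lower.

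Egr2, a zinc finger transcription factor, showed the largest fall of the list. It stood at 3.65, 3.91 and 1.98 log2 CPM in wild-type libraries and at -2.93, -1.38 and -0.94 in R6/2 libraries 1 to 3, where it had 1, 7 and 10 reads against 242, 345 and 78 in wild type. The fall of 4.93 ± 0.61 (adjusted p = 0.000616) was called in all 25 alternative fits. Npas4, an activity-dependent transcription factor restricted to neurons, fell by 2.91 ± 0.52 (adjusted p = 0.00264), and Arc, a regulator of synaptic receptor turnover, by 2.64 ± 0.41 (adjusted p = 0.00146). Junb, a subunit of the AP-1 transcription factor, read 6.24, 6.80 and 5.13 and 2.92, 4.29 and 4.17 and fell by 2.27 ± 0.44 (adjusted p = 0.00373), while the MAP kinase phosphatase Dusp1, at 4.72, 4.76 and 3.99 and 2.86, 3.01 and 3.18, fell by 1.47 ± 0.23 (adjusted p = 0.00134). No R6/2 value of these genes reached the wild-type range. Fos, the best known of the group, was at the edge of the test: it read 3.90, 4.88 and 3.19 in wild type and 2.51, 2.95 and 3.06 in R6/2, a difference of -1.15 ± 0.39 (adjusted p = 0.04) that was called in 8 of the 25 alternative fits, and leaving out any of 8 libraries ended the call, with adjusted p of 0.0504 to 0.128. Nr4a2 (-0.76 ± 1.10), Nr4a3 (0.24 ± 0.41) and Klf4 (0.10 ± 0.38) did not pass. Wild-type and R6/2 library 3 were both high in Nr4a2, at 6.51 and 5.06.

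Activity reaches these promoters through CREB, which binds the cAMP response element (CRE, TGACGTCA, with the shorter core TGACG contained in it), and through serum response factor at the CArG box. The promoter windows below, from RefSeq on GRCm38.p6, written 5′ to 3′ on the gene's strand, show such a match in capitals for 2 early genes and for the indirect pathway gene Gpr6. For Egr2 the capitals are a CArG box beginning 72 bases before the start of 1 of its 5 listed promoters, 4 of which held a match (chr10:67537449-67537548, plus strand), for Dusp1 a CRE 143 bases before the start (chr17:26508562-26508661, minus strand), and for Gpr6 a CRE 78 bases before the start (chr10:41072315-41072414, minus strand).
Egr2: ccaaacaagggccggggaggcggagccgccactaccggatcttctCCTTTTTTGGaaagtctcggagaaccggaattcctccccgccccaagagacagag
Dusp1: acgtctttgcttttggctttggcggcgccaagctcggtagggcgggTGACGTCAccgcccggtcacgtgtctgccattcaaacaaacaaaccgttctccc
Gpr6: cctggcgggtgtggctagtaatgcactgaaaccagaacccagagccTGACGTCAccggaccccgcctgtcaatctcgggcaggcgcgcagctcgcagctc
Of the 17 immediate early genes with a promoter entry, 14 (82.4%) held the core TGACG. The share was 33.8% over all 11814 genes of the table with an entry. Both strands were searched over the whole entry, which begins 250 bases before the start and runs past it. The core stood in 10 of the 13 that were called and in all 4 that were not. The full CRE was held by 2 of 17 (11.8%, against 3.45% of all), the CArG box by 1 of 17 (5.88%, against 1.53%). Among indirect pathway genes 2 of 7 held the full CRE, Gpr6 and Cartpt, and among the 30 shared medium spiny neuron genes with an entry none did. A match is a description of these letters and not a bound site.

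Genes induced by interferons were higher in R6/2 under PLX3397. Of 36 interferon-stimulated genes, 24 were higher and 0 lower, with a median of 1.07, against 17.1% higher over all genes. The level of the list was 2.78, 2.95 and 2.79 in wild-type libraries 1 to 3 and 3.69, 3.64 and 3.39 in R6/2 libraries 1 to 3. After removal of the GC and length trend 28 were higher and 0 lower, and with the cortical covariate 22 were higher. Without R6/2 libraries 1 and 2 the median was 0.96, and none passed the limma threshold (17 higher and 0 lower at an unadjusted p under 0.05).

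Irgm1, an interferon-inducible GTPase, read 2.80, 2.79 and 3.13 log2 CPM in wild-type and 4.0, 3.98 and 3.94 in R6/2 libraries 1 to 3 and rose by 1.07 ± 0.15 (adjusted p = 0.000972). Eif2ak2, the kinase PKR that senses double-stranded RNA, read 0.71, 2.14 and 2.07 against 4.18, 4.43 and 3.71 and rose by 2.47 ± 0.36 (adjusted p = 0.00104). The RNA sensor Ddx58 (RIG-I) rose by 1.45 ± 0.22 (adjusted p = 0.00124), its relative Ddx60 by 3.42 ± 0.57 (adjusted p = 0.00191) and the translation inhibitor Ifit1 by 1.93 ± 0.35 (adjusted p = 0.00272). Groups did not overlap in any of these 5. Irf7, the transcription factor that amplifies the interferon response, read 1.58, 1.82 and 1.41 in wild type and 2.69, 3.04 and 3.07 in R6/2 and rose by 1.33 ± 0.23 (adjusted p = 0.00226). Some members did not move with the rest. Isg15, a ubiquitin-like modifier, was at 0.30 ± 0.29 (adjusted p = 0.431), Stat2, a transcription factor of interferon signalling, at -0.24 ± 0.15 (adjusted p = 0.235) and Ifitm3, a membrane restriction factor, at -0.41 ± 0.31 (adjusted p = 0.315). The Oas1 and Ifit3 copies are near-identical genes between which reads can be split, and their values are uncertain.

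Interferon signals reach these genes through the interferon-stimulated response element (ISRE), searched here as GAAANNGAAA on both strands. The windows below, from RefSeq on GRCm38.p6 and written 5′ to 3′ on the gene's strand, show the matches in capitals for 4 genes that rose. They are Irgm1 (chr11:48871393-48871492, minus strand, 2 overlapping matches beginning 30 bases before the start), Eif2ak2 (chr17:78882543-78882599, minus strand, beginning 18 bases after the start), Ddx58 (chr4:40239796-40239868, minus strand, read on the other strand, beginning 2 bases after the start) and Ifit1 (chr19:34640750-34640848, plus strand, 2 matches on the other strand beginning 104 bases before the start).
Irgm1: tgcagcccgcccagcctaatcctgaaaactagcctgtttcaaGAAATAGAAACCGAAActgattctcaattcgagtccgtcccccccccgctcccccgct
Eif2ak2: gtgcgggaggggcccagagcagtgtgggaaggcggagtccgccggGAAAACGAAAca
Ddx58: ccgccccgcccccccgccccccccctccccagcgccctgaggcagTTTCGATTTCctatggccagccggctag
Ifit1: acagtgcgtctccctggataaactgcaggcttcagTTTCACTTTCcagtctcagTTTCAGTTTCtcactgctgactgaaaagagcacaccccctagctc
Of the 26 interferon-stimulated genes with a promoter entry, 17 (65.4%) held the element, against 410 of all 11814 (3.47%). It stood in 11 of the 17 that were called (64.7%) and in 6 of the 9 that were not (66.7%), so within the list the match did not separate the genes that passed.

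**Figure D4:**
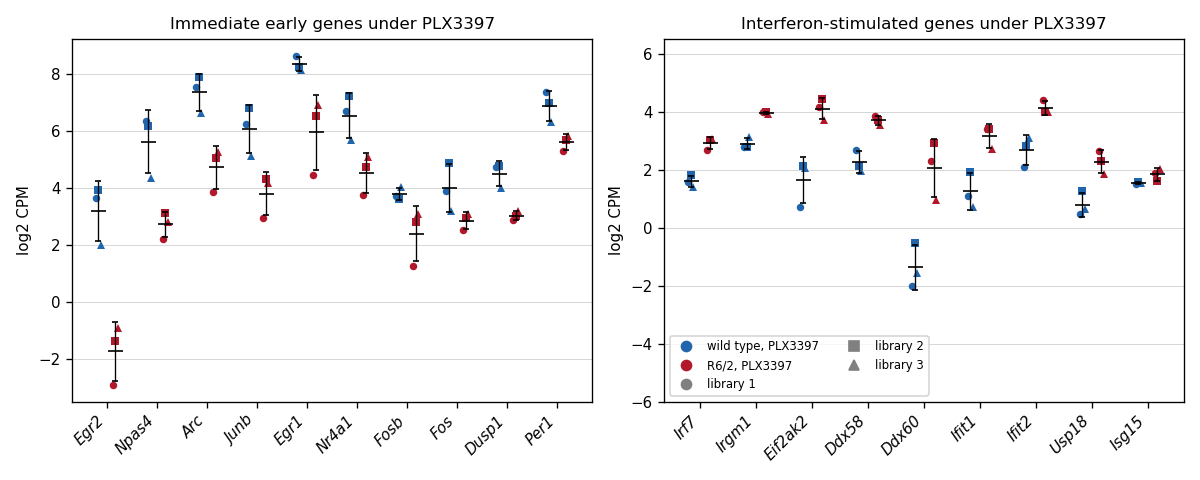
Levels of 10 immediate early genes (left) and 9 interferon-stimulated genes (right) in the 6 libraries under PLX3397, in log2 CPM. Each symbol is 1 library, and bars show the group mean and SD. R6/2 values lie below wild type on the left and above it on the right, and the groups come closest in Fos and Isg15.

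Antigen presentation genes, which respond to the same signals, were called in few cases. Of 18, 2 were higher (11.1%, below the 17.1% over all genes) and 0 lower, with a median of 0.38. After removal of the GC and length trend 5 were higher, with a median of 0.72. Leaving out 1 library gave 1 to 3 higher, with 1 without wild-type library 2 or 3 or R6/2 library 1 or 2. Nlrc5, the activator of MHC class I genes, read 0.10, -0.81 and -0.18 log2 CPM in wild type and 1.93, 1.45 and 1.01 in R6/2 and rose by 1.77 ± 0.42 (adjusted p = 0.0102). B2m, the light chain of MHC class I, was at 0.30 ± 0.30 (adjusted p = 0.441), with overlapping groups.

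Single microglial transcripts were lower in R6/2. Of 33 homeostatic microglia genes 5 were lower (15.2%, below the 17.9% over all genes) and 0 higher, with a median of -0.33. With the GC and length trend removed 2 were lower and 1 higher. Without R6/2 library 1 the list had 3 lower, without wild-type library 3 it had 9, and without R6/2 libraries 1 and 2 it had 0 called in limma (3 higher and 3 lower at an unadjusted p under 0.05) and a median of 0.16. Of 17 activated microglia genes 6 were lower (35.3%) and 0 higher, with a median of -0.55. Leaving out 1 library gave 4 to 6 lower, and 4 were lower after removal of the trend. Under PLX3397 the level of this list was 8.4 to 8.9 in wild type and 7.56 to 7.8 in R6/2. On vehicle it was 8.15 to 8.22 and 7.76 to 8.49, so in wild type this level was not lower under the drug. A log2 of the mean CPM follows the most abundant members of a list, and other cells can also make them. Which cells set this level was not tested. Irf8, a transcription factor of the microglial lineage, read 1.89, 0.43 and 1.41 log2 CPM in wild-type and -1.98, -0.39 and -1.52 in R6/2 libraries 1 to 3 and fell by 2.54 ± 0.48 (adjusted p = 0.00332). Trem2, a lipid-sensing receptor of microglia, had 5, 24 and 39 reads in wild type and 1, 0 and 6 in R6/2 and fell by 2.53 ± 0.61 (adjusted p = 0.0104). Cd68, a lysosomal glycoprotein of phagocytes, read 3.42, 3.39 and 3.34 against -0.22, 1.62 and 1.34 and fell by 2.47 ± 0.42 (adjusted p = 0.00214), in all 25 alternative fits. The groups did not overlap in Irf8 and Cd68, while in Trem2 R6/2 library 3 and wild-type library 1 were level at -1.52 log2 CPM. Csf1r at -0.59 ± 0.68 (adjusted p = 0.513), Cx3cr1, the fractalkine receptor, at -1.0 ± 0.60 (adjusted p = 0.209) and C1qa, a subunit of the first complement component, at -1.13 ± 0.86 (adjusted p = 0.323) overlapped and did not pass. The homeostatic list level did not share this direction: R6/2 library 1 was the highest of the 6 at 3.69, and Sparc, a matrix glycoprotein that other cells also make, was highest in that library at 8.21 log2 CPM against 5.89 to 6.10 in wild type. Il34, the neuronal ligand of Csf1r, read 6.42, 6.10 and 6.32 against 5.06, 5.49 and 5.85 and fell by 0.81 ± 0.19 (adjusted p = 0.00887), and this call ended after removal of the GC and length trend (-0.27, adjusted p = 0.414). The other ligand, Csf1, stood at 0.03 ± 0.20 (adjusted p = 0.919). The level of 4 blood cell genes ranged from 0.75 to 2.46 in wild type and from -0.72 to 1.32 in R6/2. Their part in the result was not tested.

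In the oligodendrocyte lineage, 8 of 19 precursor genes were higher and 2 lower (median 0.48), or 5 and 2 without R6/2 library 1. The shares over all genes were 17.1% higher and 17.9% lower. The level of the precursor list overlapped between the groups, at 6.15, 6.15 and 5.88 in wild-type and 6.22, 6.13 and 6.15 in R6/2 libraries 1 to 3. Of 22 myelin genes, which encode proteins and lipid enzymes of the sheath, 7 were lower and 0 higher (median -0.68). The myelin count was 3 without R6/2 library 1, 3 without R6/2 library 2 and 4 without wild-type library 2. Sox6, a transcription factor that holds precursors undifferentiated, read 3.85, 3.49 and 3.71 log2 CPM in wild type and 5.46, 5.30 and 4.95 in R6/2 and rose by 1.55 ± 0.22 (adjusted p = 0.000982). Gpr17, a receptor of committed precursors, read 5.0, 4.95 and 4.77 against 5.91, 5.39 and 5.67 and rose by 0.75 ± 0.15 (adjusted p = 0.00415), with every R6/2 library above every wild-type library in both genes. Pdgfra, the growth factor receptor of precursors, rose by 1.0 ± 0.22 (adjusted p = 0.00635), and after removal of the GC and length trend it was at 0.55 (adjusted p = 0.0517). Cacng4, a calcium channel and AMPA receptor subunit that projection neurons also express, fell by 1.37 ± 0.30 (adjusted p = 0.0063), as did Cspg5 (neuroglycan C) by 0.73 ± 0.15 (adjusted p = 0.00487). After removal of the trend 7 precursor genes were higher and 2 lower, and without R6/2 libraries 1 and 2 the median was 0.29.

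Mal, a myelin proteolipid, stood at 9.28, 9.03 and 8.57 log2 CPM in wild-type and at 7.22, 7.23 and 8.09 in R6/2 libraries 1 to 3. R6/2 library 3 lay closest to the wild-type group in Mal and in the whole list (8.24, 8.15 and 8.88 in R6/2 against 9.52, 9.42 and 9.05). Mal fell by 1.45 ± 0.28 (adjusted p = 0.00382), Fa2h, the hydroxylase of myelin lipids, by 1.5 ± 0.31 (adjusted p = 0.0054) and Cldn11, the tight junction protein of the sheath, by 1.42 ± 0.31 (adjusted p = 0.0068). Mag (-0.74 ± 0.29) and Mog (-0.67 ± 0.29), 2 glycoproteins of the sheath, did not pass. Without R6/2 libraries 1 and 2, which were the lowest 2 of the 6, the median of the list was -0.29 and 0 were called in limma (1 lower at an unadjusted p under 0.05).

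Cholesterol synthesis, a pathway driven by the transcription factor SREBP2 and active in both glia and neurons, was lower along most of its length. Of 25 genes, 16 were lower and 2 higher (median -0.61), and the level of the list was 5.91 to 6.03 in the 3 wild-type libraries against 5.18 to 5.44 in R6/2. Msmo1, a sterol demethylation enzyme, read 6.86, 6.80 and 6.84 log2 CPM in wild type and 5.62, 5.24 and 5.62 in R6/2, with a spread within the groups far smaller than the gap between them. It fell by 1.34 ± 0.14 (adjusted p = 0.000272), in all 25 alternative fits. Fdft1 (squalene synthase) fell by 1.31 ± 0.21 (adjusted p = 0.00168) and Mvd (mevalonate decarboxylase) by 1.21 ± 0.21 (adjusted p = 0.00232). After removal of the GC and length trend 12 were lower and 0 higher, and with the cortical covariate 13 were lower and 1 higher.

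Of 24 astrocyte genes, 7 were lower and 1 higher (median -0.22), against 17.9% lower and 17.1% higher over all genes. Aldoc, a glycolytic enzyme of astrocytes, read 9.92, 9.87 and 9.82 log2 CPM in wild type and 9.18, 8.89 and 8.96 in R6/2 and fell by 0.86 ± 0.17 (adjusted p = 0.00383). Aldh1l1, a folate enzyme used to mark astrocytes, fell by 0.72 ± 0.15 (adjusted p = 0.00594) and Glul, glutamine synthetase, by 0.82 ± 0.20 (adjusted p = 0.0114). Gfap, the filament protein of reactive astrocytes, was at 9.02, 8.42 and 8.0 and 6.71, 5.87 and 7.97, a difference of -1.63 ± 0.58 that stood just outside the threshold (adjusted p = 0.0501). Ependymal genes, from the ciliated lining of the ventricle, were lower in 6 of 10 cases and higher in 0, with a median of -1.75. Ccdc153, a gene of motile cilia, stood at 3.88, 4.73 and 1.46 against -1.98, 0.14 and 1.16 and fell by 3.59 ± 0.90 (adjusted p = 0.0122). The list's level was 4.02, 4.17 and 2.86 in wild type and 2.26, 2.25 and 2.65 in R6/2, so wild-type library 3 lay within 0.3 of R6/2 library 3. How much of the ventricular wall a dissection holds was not tested.

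The matrix genes that the study's title points to did not move as a block. Of 25 genes of the perineuronal net and hyaluronan matrix, 7 were higher and 4 lower (median -0.05), against 17.1% and 17.9% over all genes. This matrix is the coat around neurons built of proteoglycans, link proteins and tenascin-R. Without R6/2 library 1 or R6/2 library 2 the counts were 6 and 2, and on vehicle chow 0 were higher and 1 lower. Acan, aggrecan, the proteoglycan that defines the nets, read 0.96, 1.34 and 1.59 log2 CPM in wild type and 2.52, 2.07 and 2.50 in R6/2. All 3 R6/2 values were above all wild-type values, and Acan rose by 1.07 ± 0.26 (adjusted p = 0.0113, 95% interval 0.49 to 1.65). Tnr, tenascin-R, which cross-links the net, read 4.2, 3.28 and 4.5 against 6.04, 6.63 and 6.17 and rose by 2.29 ± 0.43 (adjusted p = 0.00341). Ptprz1, the phosphatase receptor whose secreted form is phosphacan, rose by 1.27 ± 0.22 (adjusted p = 0.00248), or 0.49 after removal of the GC and length trend (adjusted p = 0.0446). Susd5, a predicted hyaluronan-binding protein, rose by 1.38 ± 0.24 (adjusted p = 0.00243). Nptx2, a pentraxin secreted by excitatory neurons that gathers AMPA receptors, read 4.62, 5.05 and 6.04 against 2.38, 2.43 and 3.47 and fell by 2.48 ± 0.39 (adjusted p = 0.00143), beside cortical genes that were also low in R6/2 libraries 1 and 2. With R6/2 library 3 alone its difference was -1.76. No rise was called in the other brain lecticans: Bcan (brevican) was at -0.51 ± 0.16 (adjusted p = 0.028) but at 0.00 after removal of the trend, and leaving out any 1 of 5 of the 6 libraries ended its call (adjusted p 0.0556 to 0.0741). Ncan (neurocan) was at -0.75 ± 0.31 (adjusted p = 0.0778, and -0.89 with an adjusted p of 0.0126 without the trend), Vcan (versican) at 0.93 ± 0.40 (adjusted p = 0.0882) and the link protein Hapln1 at -0.41 ± 0.33 (adjusted p = 0.341).

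Enzymes that build chondroitin sulfate, the sugar chains of these proteoglycans, were higher in 4 of 20 cases and lower in 3, shares near the 17.1% and 17.9% over all genes. With the trend removed 2 were higher and 2 lower, and leaving out 1 library gave 1 to 5 higher and 1 to 3 lower, with the fewest higher without R6/2 library 2. Dse, the epimerase that turns chondroitin into dermatan sulfate, read 1.47, 1.52 and 1.56 in wild type and 2.57, 2.59 and 2.79 in R6/2 and rose by 1.13 ± 0.20 (adjusted p = 0.00243). Chpf, a chondroitin polymerizing factor, fell by 0.57 ± 0.14 (adjusted p = 0.0104), a call that ended after removal of the trend (-0.14, adjusted p = 0.432). Among 36 collagens and laminins 4 were higher and 3 lower (2 and 0 without R6/2 library 1, 2 and 1 without R6/2 library 2), both shares under those over all genes, and after removal of the trend 0 were called in limma (5 higher and 3 lower at an unadjusted p under 0.05). Lama2, the laminin chain of muscle and vessel basement membranes, rose by 1.13 ± 0.22 (adjusted p = 0.00369) and was at 0.42 without the trend (adjusted p = 0.194). Among 27 matrix proteases and inhibitors 3 were higher and 1 lower, again under those shares. The lower one, Mmp17, a membrane-bound metalloproteinase, fell by 1.37 ± 0.29 (adjusted p = 0.00596).

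Of 19 genes of striatal GABA interneurons, 5 were lower (26.3%, against 17.9% over all genes) and 1 higher (5.26%, against 17.1%). After removal of the trend 4 were lower and 0 higher. Pthlh, a peptide of fast-spiking interneurons, read 2.92, 2.42 and 3.24 log2 CPM in wild type and -0.60, -0.04 and -0.14 in R6/2 and fell by 3.12 ± 0.42 (adjusted p = 0.00077). Cox6a2, a cytochrome oxidase subunit found in parvalbumin interneurons, fell by 1.95 ± 0.27 (adjusted p = 0.000918), the peptide Sst, somatostatin, by 1.85 ± 0.31 (adjusted p = 0.00215) and Npy, neuropeptide Y, by 1.94 ± 0.41 (adjusted p = 0.00537). Cortical interneurons also make the last 2 peptides. None of these 4 had overlapping groups. Cholinergic interneuron genes gave another picture: of 12, 0 were called in either direction in limma or in limma-voom on the recovered reads (3 lower and 0 higher at an unadjusted p under 0.05 in each), and the list's level was 4.56, 4.07 and 4.10 in wild type and 4.32, 4.25 and 2.78 in R6/2. Chat, choline acetyltransferase, read 5.41, 3.65 and 4.37 and 3.66, 4.03 and 2.50, a difference of -1.08 ± 0.60 (adjusted p = 0.181). Without R6/2 libraries 1 and 2 the median of the list was -1.16, with library 3 the lowest of the 6.

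Receptors and channels held genes called in both directions, as did all genes together (17.1% higher and 17.9% lower). Of 14 GABA-A receptor subunits 6 were higher and 1 lower (median 1.21), and after removal of the GC and length trend 1 was higher and 1 lower (median 0.53). Gabrd, the delta subunit of extrasynaptic receptors, read 7.91, 7.40 and 7.64 log2 CPM in wild type and 2.68, 4.89 and 5.28 in R6/2 and fell by 3.36 ± 0.61 (adjusted p = 0.00276). Gabrq, the theta subunit, which is abundant in hypothalamus and brainstem, read -1.32, -1.19 and 0.04 against 4.89, 3.83 and 1.93 and rose by 4.37 ± 1.02 (adjusted p = 0.0089). Both kept their calls after the trend was removed, at -2.98 and 3.96. Of 33 glutamate receptors and scaffolds 6 were higher (18.2%, against 17.1% over all genes) and 8 lower (24.2%, against 17.9%), or 3 and 10 without the trend and 3 and 5 without R6/2 library 1. Dlg4 (PSD-95) fell by 1.11 ± 0.21 (adjusted p = 0.00328), Grin2c, an NMDA receptor subunit, by 1.61 ± 0.27 (adjusted p = 0.00194), and Gria4, an AMPA receptor subunit, rose by 1.54 ± 0.32 (adjusted p = 0.00499). Potassium channel genes were higher in 4 and lower in 10 of 36 (0 and 14 without the trend, and 1 to 5 and 9 to 11 when 1 library was left out, with 1 higher without R6/2 library 1 or 3). Kcnip3, the calcium sensor DREAM, read 7.19, 7.23 and 7.64 against 5.32, 5.53 and 6.00 and fell by 1.74 ± 0.18 (adjusted p = 0.000269), and Kcnh4, an ether-a-go-go-like channel, fell by 4.0 ± 0.51 (adjusted p = 0.000672), both in all 25 alternative fits. Sodium and calcium channel genes were higher in 6 (18.2%) and lower in 9 (27.3%) of 33, or 2 and 11 without the trend, and 3 were higher without R6/2 library 2. Scn1a, the sodium channel of fast-spiking neurons, read 5.64, 5.63 and 6.83 against 8.16, 8.19 and 7.79 and rose by 2.02 ± 0.37 (adjusted p = 0.00309).

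Among 44 axon guidance genes 13 were higher (29.5%, against 17.1% over all genes) and 9 lower (20.5%, against 17.9%), or 6 and 4 without the GC and length trend. The lower count was 4 without R6/2 library 1 and 5 without R6/2 library 2. Robo1, the Slit receptor, read 5.37, 4.92 and 5.23 log2 CPM in wild type and 6.51, 6.74 and 6.18 in R6/2 and rose by 1.30 ± 0.19 (adjusted p = 0.00122). The secreted semaphorin Sema3d rose by 2.81 ± 0.47 (adjusted p = 0.00195) and the receptor Epha3 by 1.68 ± 0.31 (adjusted p = 0.00301), while Sema5b fell by 1.53 ± 0.28 (adjusted p = 0.00276).

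Calls among transcripts of the ribosome and of the respiratory chain depended on the GC and length trend and on single libraries. Of 40 cytosolic ribosomal protein genes 21 were lower and 0 higher (median -0.65), and 5 were lower after removal of the trend (median -0.16). The count was 6 without wild-type library 2, 6 without R6/2 library 2, 8 without R6/2 library 3 and 11 without R6/2 library 1. Of 32 nuclear genes of the respiratory chain and its regulators 16 were lower and 1 higher (median -0.50), and 5 lower and 2 higher after removal (median -0.07). The lower count was 9 under the replicate block, 7 with the cortical covariate, 7 without R6/2 library 2, 10 without R6/2 library 1 and 9 without any 1 of wild-type library 2, wild-type library 3 and R6/2 library 3. Ribosomal protein genes have many processed pseudogenes that can share their reads. Rps19 fell by 1.34 ± 0.30 (adjusted p = 0.00722) and stayed called without the trend (-1.17, adjusted p = 0.0143), as did Cox6c, a cytochrome oxidase subunit (-0.67 ± 0.15, then -0.70). Cox6a1, another subunit, fell by 0.96 ± 0.17 (adjusted p = 0.00277) and was at -0.09 without it (adjusted p = 0.629). Ppargc1a, the coactivator PGC-1 alpha that drives mitochondrial biogenesis, was the 1 gene of the list that rose, by 1.05 ± 0.26 (adjusted p = 0.0122), a call that also ended without the trend (0.26, adjusted p = 0.238).

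Of 17 integrated stress response genes 5 were lower (29.4%, against 17.9% over all genes) and 0 higher, with a median of -0.18. With the GC and length trend removed 3 were lower and 2 higher, with a median of 0.03. Trib3, a pseudokinase induced by ATF4, read 2.08, 2.03 and 1.49 log2 CPM in wild type and -0.44, -0.39 and -0.83 in R6/2 and fell by 2.42 ± 0.35 (adjusted p = 0.000989), in all 25 alternative fits. Ddit3 (CHOP), the transcription factor of prolonged stress, read 5.32, 5.77 and 5.54 against 4.58, 4.25 and 4.40 and fell by 1.14 ± 0.17 (adjusted p = 0.00122), while Atf4 itself was at -0.31 ± 0.14 (adjusted p = 0.119). Of 23 heat shock and chaperone genes 4 were lower (17.4%, a share near that of all genes) and 1 higher, or 2 lower without R6/2 library 2, with Dnajb5, a co-chaperone, down by 1.10 ± 0.19 (adjusted p = 0.00208).

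Mouse Htt, which R6/2 mice keep intact and which therefore checks no label, was at 8.02, 6.76 and 7.39 log2 CPM in wild type and 8.03, 7.97 and 8.08 in R6/2, a difference of 0.64 ± 0.28 (adjusted p = 0.0946). Of 19 genes tied to huntingtin and to BDNF signalling, 7 were higher and 2 lower, against 17.1% and 17.9% over all genes. Without the GC and length trend 6 were higher and 3 lower. Ep300, a histone acetyltransferase, read 5.69, 5.33 and 5.80 against 7.04, 7.03 and 7.05 and rose by 1.43 ± 0.19 (adjusted p = 0.000694), and its relative Crebbp rose by 1.48 ± 0.29 (adjusted p = 0.00389). Both bind CREB, and the second is known to be caught in mutant huntingtin aggregates. Rest, the repressor of neuronal genes that huntingtin retains in the cytoplasm, read 1.62, -0.52 and 0.65 against 2.88, 2.82 and 2.81 and rose by 2.25 ± 0.43 (adjusted p = 0.00371). Rasd2 (Rhes), a striatal GTPase that acts on huntingtin, fell by 3.16 ± 0.54 (adjusted p = 0.00217).

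Of 20 developmental transcription factors of other regions 4 were higher (a share near the 17.1% over all genes) and 0 lower, with a median of 1.11. Leaving out 1 library gave 2 to 7 higher, with 2 without wild-type library 1 or 2 or R6/2 library 1 and 7 without R6/2 vehicle library 1, and 3 were called higher without R6/2 libraries 1 and 2. Pou4f1, a factor of sensory and habenular neurons, had 1, 2 and 0 reads in wild-type libraries and 13, 45 and 93 in R6/2 libraries 1 to 3. It rose by 3.69 ± 0.63 (adjusted p = 0.00223), and on vehicle chow by 4.60 ± 0.63 (adjusted p = 0.0161). Pax2, a factor of the midbrain-hindbrain boundary and kidney, had 0, 0 and 0 reads in wild type and 8, 8 and 55 in R6/2, and the fitted rise (adjusted p = 0.0109) depends on the prior that stands in for 0 reads. R6/2 library 3 was the highest of the group in both genes.

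By size alone, the largest falls included Gpx6, a glutathione peroxidase, with 282, 201 and 76 reads in wild type and 1, 7 and 0 in R6/2 (adjusted p = 0.000844). Ptpn7, a tyrosine phosphatase, had 450, 212 and 325 reads against 1, 24 and 4 (adjusted p = 0.00125), and Fgf3, a fibroblast growth factor, 109, 133 and 120 against 0, 14 and 0 (adjusted p = 0.00104). Cd4, best known as the T cell co-receptor, stood at 7.49, 6.12 and 6.66 log2 CPM in wild type and -0.90, 3.01 and 2.01 in R6/2 and fell by 5.38 ± 0.91 (adjusted p = 0.00211). All 4 were called in all 25 alternative fits. Their R6/2 values were below every wild-type value, which the rule that chose them required. Abhd11os, a long non-coding RNA, read 4.26, 4.46 and 3.86 against 0.03, 0.08 and -0.08, the tightest of the large falls at 4.18 ± 0.28 (adjusted p = 4.22e-05). Among the largest rises, Minar1, a membrane protein that binds Notch2, read -0.72, -0.61 and -0.35 in wild type and 3.77, 3.13 and 2.52 in R6/2 and rose by 3.70 ± 0.34 (adjusted p = 0.000166). Aff2, the gene of the FRAXE locus, rose by 3.94 ± 0.51 (adjusted p = 0.000682), Trpc5, a calcium-permeable cation channel, by 3.63 ± 0.44 (adjusted p = 0.000595) and Gucy2f, a guanylate cyclase first known from retina, by 3.90 ± 0.56 (adjusted p = 0.00103). Pgr15l, an orphan receptor gene with the largest fitted rise (4.43, adjusted p = 0.0317), lost its call without wild-type library 1 or 2 or R6/2 library 1 or 2, with adjusted p of 0.054 to 0.0974.

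The genotype difference on vehicle chow was smaller in number of calls and in part the same. Of the 325 genes called on vehicle, 204 (62.8% of that list and 3.79% of the PLX3397 list) were also called under PLX3397, 197 of them in the same direction, 52 higher and 145 lower. The 2 comparisons share no library. Of the 325, 276 had the same sign under PLX3397 and 122 the larger difference there. Penk was at -3.09 ± 0.38 on vehicle (adjusted p = 0.0161), Ppp1r1b at -2.50 ± 0.54 (adjusted p = 0.0444), Egr2 at -3.24 ± 0.61 (adjusted p = 0.032) and Irf7 at 2.56 ± 0.23 (adjusted p = 0.00368).

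The test of the difference between the genotype effects, under PLX3397 minus on vehicle, called 1430 genes higher (9.29%) and 1187 lower (7.71%), of which 2176 were also called under PLX3397 and 77 on vehicle. When 1 library was left out these counts ranged from 350 to 1820 and from 187 to 1712. After removal of the GC and length trend it called 127 higher and 170 lower, and without R6/2 libraries 1 and 2 under PLX3397 it called 0 genes in limma (1416 higher and 1183 lower at an unadjusted p under 0.05). limma-voom on the recovered reads called 1436 higher and 1150 lower. In the shared medium spiny neuron list 1 of 36 was called (higher), in the D2 list 0 of 12, in the immediate early list 1 of 22 (lower) and in the interferon list 4 of 36 (3 higher, 1 lower), and after removal of the trend 0 in each of these 4 lists in limma (3, 1, 1 and 5 at an unadjusted p under 0.05). In the D1 list 2 of 12 were called higher (16.7%, against 9.29% over all genes). After removal of the trend 0 were called in limma (3 higher at an unadjusted p under 0.05). The median genotype difference of the D1 list was -1.12 on vehicle and 0.08 under PLX3397. Oligodendrocyte precursor genes were called higher in 7 of 19 (2 without the trend). Sox6 read 5.30, 5.09 and 4.91 in wild type and 4.18, 4.64 and 5.06 in R6/2 on vehicle, a genotype difference of -0.48 ± 0.22 against 1.55 ± 0.22 under PLX3397, and the difference of differences was 2.03 ± 0.31 (adjusted p = 0.0139, or 0.0991 without the trend). For Gpr17 it was 0.89 ± 0.21 (adjusted p = 0.022, or 0.0447 without the trend), with a vehicle difference of -0.14 ± 0.15. Cholinergic interneuron genes were called higher in 5 of 12 (2 without the trend). Their level on vehicle was 4.42 to 4.51 in wild type and 1.29 to 2.33 in R6/2, where 10 of 12 were lower. Lhx8, the transcription factor of cholinergic neurons, read 3.79, 3.04 and 4.13 in wild type and 0.34, -0.87 and 1.83 in R6/2 on vehicle but 3.11, 2.59 and 2.98 and 4.43, 4.05 and 2.81 under PLX3397, a difference of differences of 4.09 ± 0.86 (adjusted p = 0.0174, or 0.0395 without the trend). Genes of thalamus, septum and pallidum, regions next to the dissected one that hold such neurons, were called higher in 3 of 15 by the same test, and under PLX3397 their level was highest in R6/2 library 1, at 5.0. Their part in the result was not tested.

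**Figure D5:**
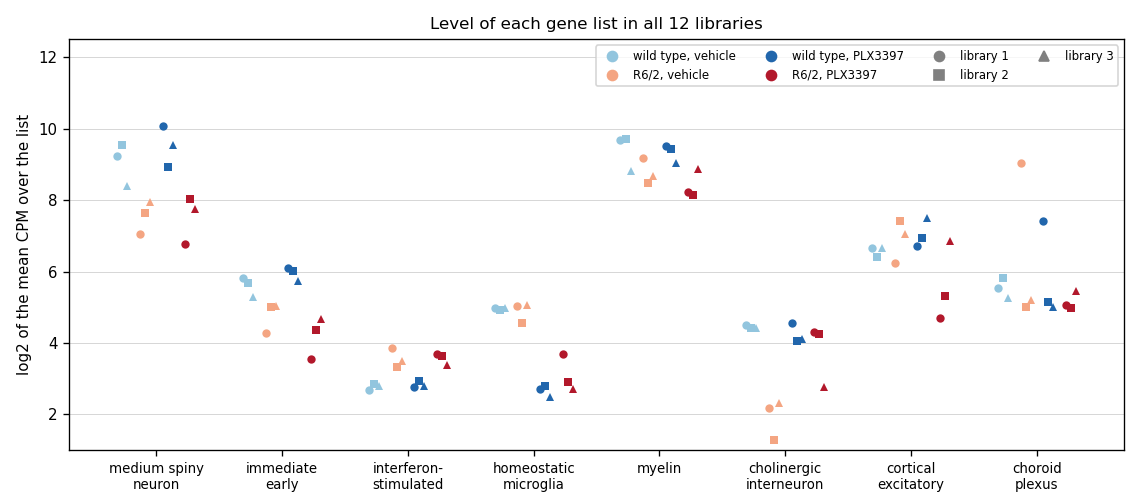
Level of 8 gene lists in all 12 libraries, as log2 of the mean CPM over each list, by genotype and chow. Each symbol is 1 library. Under PLX3397 the R6/2 libraries are below wild type for medium spiny neuron and immediate early genes and above it for interferon-stimulated genes, and R6/2 libraries 1 and 2 are the lowest in cortical genes.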

How the data were processed

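Striatal RNA from 12 mice (R6/2 or wild type, PLX3397 or vehicle chow, 3 per group) was sequenced by the authors. Per the submitters' processing notes, reads were handled with STAR, featureCounts, edgeR and limma on mm10, with no versions given. The deposited table is named as RPKM by the authors, but its values are log2 CPM of gene counts with a small prior (about 2 reads), and whole reads were recovered for 99.97 to 100% of values per library within a tolerance of 0.1 reads. Depth was 18902120 to 24293208 reads per library, which sets the precision of low genes.

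The deposited log2 values of 15397 genes were fitted with limma 3.58.1 (R 4.3.3, Python 3.11.15) as 1 mean per group (4 groups, 12 libraries), with the prior variance following mean intensity, so that the groups share 1 estimate of the spread. Contrasts were tested two-sided, adjusted by Benjamini-Hochberg over all genes and called at an adjusted p under 0.05. The fit was tested on simulated data with independent noise in each gene. These data held no shared GC, length or cortical trend, so they do not test calls made where such trends exist. Transcript GC and length came from the longest GENCODE transcript linked to each gene, for 14305 genes (92.9%). Gene positions came from RefSeq, in which 15078 genes were matched by gene ID. List levels are log2 of the mean CPM over a list. Strand is not stated, so overlapping and antisense genes cannot be separated.

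Alternatives were limma-voom on recovered reads, other pseudocounts (1 and 5 CPM), a filter of 1 CPM in 3 libraries, median-of-ratios scaling, no intensity trend, a replicate block, a GC and length correction (loess, span 0.5), a cortical covariate, fewer libraries and each library left out. Members and the 40 gene lists were chosen with earlier results of these data known. Genes were named by rule: the 10 largest rises and falls without overlap and with a mean log2 CPM of at least 0, the 10 smallest p of the interaction, 4 members of smallest p per list and a fixed set. Other list members named in the text were chosen after their values were seen.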

Additional observations from a re-analysis of the deposited data

Results flagged for a closer look

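The genotype difference itself differed between the chows for 2617 genes (interaction contrast in limma, adjusted p under 0.05). The values below are log2 differences of differences, under PLX3397 minus on vehicle, and each passed that test. Without R6/2 libraries 1 and 2 under PLX3397 none of them passed, and the explanation was not tested.

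The smallest p-values belonged to Minar1 at 4.11, Nat14, an acetyltransferase, at -1.25, Ccdc85a, an adherens junction protein, at 1.62, Enah, a regulator of actin filaments, at 1.66, the semaphorin Sema6d at 1.35, N4bp2, a partner of the ubiquitin ligase Nedd4, at 4.10, Ubald1 at -1.30, Ecsit, a mitochondrial complex I assembly factor, at -1.08, the imprinted gene Peg3 at 3.44 and Dpy19l4 at 3.34. Nat14 read 6.87, 7.14 and 6.95 log2 CPM in wild type and 5.40, 5.53 and 5.40 in R6/2 under PLX3397, and in the same order 6.12, 6.09 and 6.20 and 5.92, 5.77 and 5.83 on vehicle. Peg3 read 6.05, 6.30 and 6.93 and 10.06, 9.5 and 8.65 under PLX3397, and 8.30, 8.20 and 8.69 and 7.63, 8.15 and 8.01 on vehicle.

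Among genes with large differences under PLX3397, the values were 4.96 for Gabrq, 3.91 for Aff2, 3.41 for Gucy2f, 4.44 for Trpc5, 3.13 for Ddx60 and -1.58 for Abhd11os. Irf7 gave -1.22, from a genotype difference of 2.56 ± 0.23 on vehicle and 1.33 ± 0.23 under PLX3397 (adjusted p = 0.0309, or 0.221 without the GC and length trend). The Csf1r ligand Il34 gave -1.12 and the microglial gene Tmem119 -1.18. Genes of the matrix gave 2.55 for Tnr, 2.30 for Vcan, 2.23 for Ptprz1 and 1.5 for Hapln1, of which Vcan was called in neither chow on its own (adjusted p = 0.0882 on vehicle and 0.0882 under PLX3397) and Hapln1 on vehicle but not under PLX3397 (adjusted p = 0.0273 and 0.341). Precursor and cholinergic genes gave 2.03 for Sox6, 0.89 for Gpr17 and 4.09 for Lhx8.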

How the results depend on the processing

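Over all alternatives, 83 counts of called genes stayed within 1.5 times their reported value and 65 did not. Of the values of single genes 4457 kept their side of the threshold, 433 lost their call and 50 gained one. Another 8 changed sign in a gene called in the reported or the alternative fit. Sign changes of genes called in neither fit are counted among the 4457. Calls that were kept in all 25 alternative fits numbered 203, 47 higher and 156 lower. The cause of a changed count was not tested unless fewer samples were used.

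For R6/2 against wild type under PLX3397, leaving out 1 library gave 1689 to 2751 genes higher and 1663 to 2899 lower. The 6 libraries alone gave 1489 and 1445, removal of the GC and length trend 1747 and 1687, the replicate block with that removal 1363 and 1410, and leaving out R6/2 libraries 1 and 2 gave 61 and 176. Among named genes called in the reported or the alternative fit, 4 changed sign with the trend removed, with or without the replicate block. They were Slco1a4 (-0.06), Csgalnact2 (-0.19), Adamts5 (-0.14) and Bcan (0.00).

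On vehicle, leaving out 1 library gave 1 to 179 genes higher and 0 to 382 lower. In limma, 1 gene was higher and 0 lower without library 1 (949 and 1173 at an unadjusted p under 0.05) or library 2 (937 and 1192) of the wild-type vehicle group. The counts were 1 and 1 without R6/2 vehicle library 2, 14 and 65 without its library 1, 7 and 44 without its library 3, and 179 and 382 without wild-type PLX3397 library 1. The replicate block gave 9 higher and 31 lower, the block with the trend removed 42 higher, the trend removed alone 425 lower, limma-voom 50 and 106, the cortical covariate 34 and 100, both choroid-high libraries left out 18 and 85, R6/2 PLX3397 libraries 1 and 2 left out 39 higher, the 6 libraries alone 356 lower and 5 CPM added 148 lower.

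For the difference between these genotype differences, leaving out 1 library gave 350 to 1820 higher and 187 to 1712 lower, with the fewest without wild-type vehicle library 1. No fit of 6 libraries can give it. The replicate block gave 941 and 491, the trend removed 127 and 170, the cortical covariate 642 and 233. The block with the trend removed gave 0 and 0 in limma (1509 and 1148 at an unadjusted p under 0.05), and so did leaving out R6/2 libraries 1 and 2 (1416 and 1183).

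Replicate numbers did not pair the mice: deviations of same-numbered libraries correlated across genes at -0.098, 0.045 and 0.011 under PLX3397. Under the replicate block 4419 of the 5389 genes called under PLX3397 kept direction and call. With 3 libraries a group and low reads for microglial and developmental genes, small differences there were not detectable at this depth.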
